A study of Mus musculus with 2 samples.

Results

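Interleukins are secreted signals that pass between cells of the immune system, and each acts through a receptor built of chains that are often shared between several interleukins. Most of these receptors signal through Janus kinases and STAT proteins, whereas the IL-1 and IL-17 receptor families signal through adaptor proteins. In the thymus, invariant natural killer T (iNKT) cells, a T cell lineage with a semi-invariant receptor, split into effector subsets that differ in these genes: NKT1 cells respond to IL-12 and IL-18, NKT2 cells make IL-4 and IL-13 and carry the IL-25 receptor chain Il17rb, and NKT17 cells make IL-17. The genes described here are the rows of both expression tables whose symbol begins with Il and a digit, without Il2rb and Il7r. The rule found 55 genes among the 16386 in the tables, made up of 34 receptor chains, 19 ligands with their antagonists and binding proteins, and 2 others, Il16 and Il4i1.

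RNA was sequenced from stage 1 iNKT cells sorted out of thymi of C57BL/6 mice that were 5 weeks old. The groups were wild type and Uhrf1 KO, with 1 library each, so nothing below has replicate error and no test of genotype was possible. Uhrf1 encodes the protein that recognises hemimethylated CpG sites after DNA replication and brings the maintenance methyltransferase to them. How Uhrf1 was deleted, in which cells, and how many mice each library held were not given in the labels. Uhrf1 itself was at 35.3 FPKM (a level of fragments scaled to library size and corrected for transcript length) in the wild-type cells and 0.626 in KO cells, on 3032 and 25 reads. The libraries held 26005836 and 12189861 reads assigned to genes. The T cell genes Cd3d and Cd3e were at 951 and 240 FPKM in the wild type and at 1110 and 271 in the KO. Zbtb16, which encodes the iNKT lineage factor PLZF, was at 114 and 41.9. Of 11 iNKT and T cell identity genes, none at 0 in either library, 1 rose by the size rule given next and 4 fell.

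Levels are given as FPKM, first in the wild type and then in the KO. A gene was counted as measured at a mean FPKM of at least 1, and "rose" and "fell" mean that log2((KO FPKM + 1) / (WT FPKM + 1)) reached 1 in size, a scale that understates the change of low genes. Folds are ratios of scaled counts with a 95% exact (Clopper-Pearson) interval. The intervals cover counting error only, because reads amplified by PCR, with no molecular identifiers, do not count molecules. In these bulk libraries, fewer cells of a type and less RNA per cell cannot be told apart. Exons of Il4ra, Il6ra, Il21, Il1rap, Il3ra, Il17rb, Il18bp and Il16 overlap those of a gene on the other strand, and those of Il2rg a predicted gene on the same strand. Whether counting used strand is not stated, so the source of reads there is uncertain.

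Of the 55 genes, 36 had reads in at least 1 library and 24 were measured. Among those 24, 9 rose and 9 fell, 18 of 24, where 44.9% of all 9955 measured genes did either. By direction, 21.3% of all measured genes rose and 23.6% fell. The members' median log2 ratio was 0.10, beside -0.0048 over all measured genes. The share of called genes depends on level, so it is also given at matched levels. At a mean FPKM of 1 to 5, 6 of 8 members were called, beside 61.1% of all genes. At 5 to 25, 8 of 9 members were called, beside 47.3%, and at 25 or more, 4 of 7 members, beside 26.1%. A gene that passed the filter through 1 library alone nearly had to be called: 10 members had an FPKM under 1 in a single library and all 10 were called, as were 92.9% of such genes overall. Il10ra, Il10rb, Il1rap and Il21 passed through the KO alone. Il3ra, Il11ra1, Il12rb1, Il2ra, Il18 and Il18bp passed through the wild type alone. Of the 14 members at an FPKM of at least 1 in both libraries, 5 rose and 3 fell, beside 32.0% of such genes called overall. The genes were chosen with earlier results of these data known, so these shares are descriptions.

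**Figure D1:**
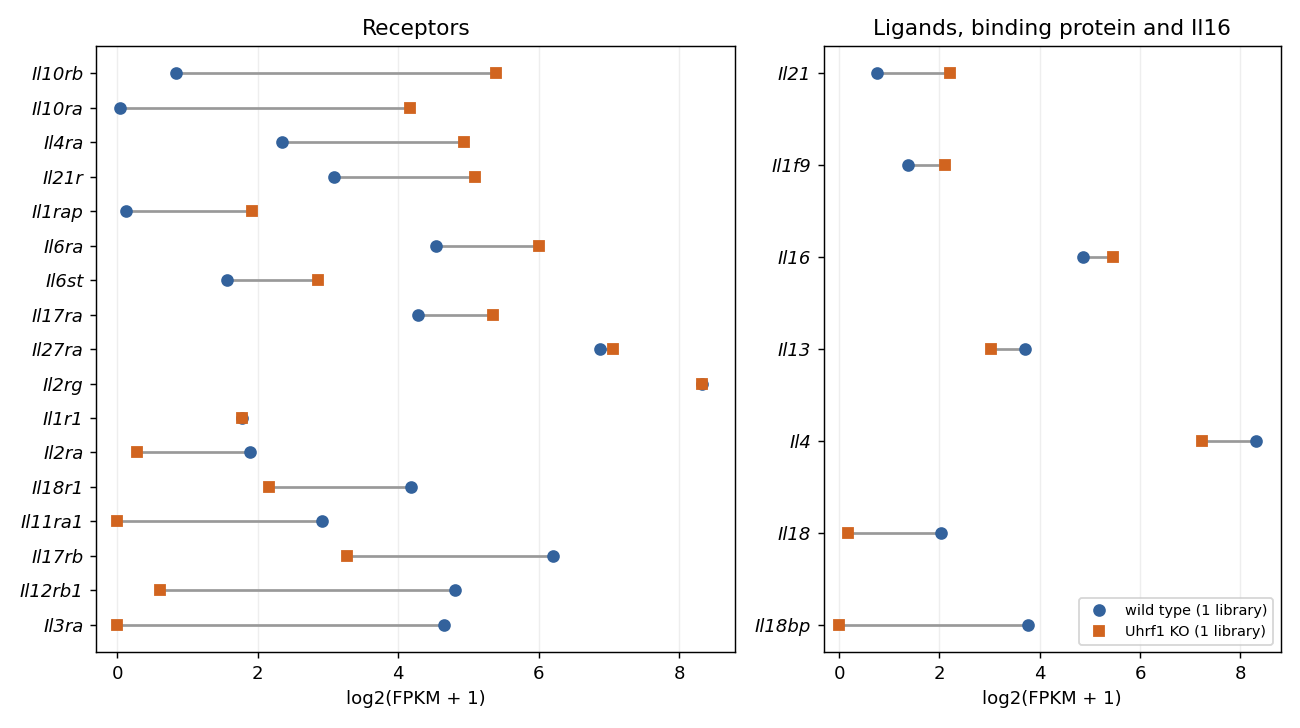
Level of each of the 24 measured genes as log2(FPKM + 1) in the wild-type library (circles) and the Uhrf1 KO library (squares), receptors on the left and ligands, the binding protein Il18bp and Il16 on the right. Il2rg and Il1r1 lie on top of each other in both libraries, while Il10ra and Il10rb are at 0.785 FPKM or less in the wild type and Il3ra, Il11ra1 and Il18bp are at 0 in the KO.

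UHRF1 acts at CpG dinucleotides, and the promoters of these genes differ widely in how many they hold. RefSeq windows (GRCm38.p6, the assembly also called mm10) were matched for 45 of the 55 genes, 19 of the 24 measured ones. Over the 250 bases before the start site, the median of all 32851 mouse windows was 6 CG, and 92.1% held at least 1. The windows below were chosen after their values were seen, to set CpG-rich promoters of genes that rose (Il4ra, Il1rap) and that fell (Il17rb, Il3ra) beside the CG-free promoter of Il4. They are written 5′ to 3′ on the gene's strand, with every CG in capitals. Il4ra covers chr7:125552021-125552270 on the plus strand, Il1rap chr16:26581455-26581704 on the plus strand, Il17rb chr14:30008897-30009146 on the minus strand, Il3ra chr14:14346245-14346494 on the plus strand and Il4 chr11:53618666-53618915 on the minus strand. Il4 has 2 RefSeq windows, and the one at the start of the files' locus was taken. The bases just after the RefSeq start of Il3ra were not found in a GENCODE M21 transcript of that gene, and the same holds for Il18.
Il4ra: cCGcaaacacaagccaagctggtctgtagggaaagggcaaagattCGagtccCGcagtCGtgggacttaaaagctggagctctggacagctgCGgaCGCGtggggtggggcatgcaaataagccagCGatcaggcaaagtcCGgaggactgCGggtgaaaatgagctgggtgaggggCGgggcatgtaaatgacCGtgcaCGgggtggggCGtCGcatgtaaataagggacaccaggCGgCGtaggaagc
Il1rap: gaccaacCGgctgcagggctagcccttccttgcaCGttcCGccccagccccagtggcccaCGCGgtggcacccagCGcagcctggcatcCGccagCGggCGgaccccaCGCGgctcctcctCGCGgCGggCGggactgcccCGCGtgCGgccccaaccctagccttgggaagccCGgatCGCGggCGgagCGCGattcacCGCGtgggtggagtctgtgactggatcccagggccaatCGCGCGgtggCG
Il17rb: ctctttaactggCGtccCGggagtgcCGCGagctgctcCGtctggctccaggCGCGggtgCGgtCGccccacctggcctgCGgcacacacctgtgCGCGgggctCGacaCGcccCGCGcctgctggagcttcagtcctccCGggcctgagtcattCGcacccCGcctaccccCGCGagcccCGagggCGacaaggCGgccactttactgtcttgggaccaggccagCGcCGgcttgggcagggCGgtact
Il3ra: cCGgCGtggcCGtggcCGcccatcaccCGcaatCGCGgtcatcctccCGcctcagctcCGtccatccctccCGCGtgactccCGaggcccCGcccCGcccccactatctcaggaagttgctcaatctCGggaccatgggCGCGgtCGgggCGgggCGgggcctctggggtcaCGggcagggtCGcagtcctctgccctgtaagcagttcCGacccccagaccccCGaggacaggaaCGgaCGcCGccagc
Il4: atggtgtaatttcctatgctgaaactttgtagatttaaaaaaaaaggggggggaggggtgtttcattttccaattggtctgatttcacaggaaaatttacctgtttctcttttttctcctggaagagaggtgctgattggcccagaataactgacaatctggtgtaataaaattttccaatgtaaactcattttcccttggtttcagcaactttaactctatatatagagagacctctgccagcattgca

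The Il4ra window held 17 CG, a number reached by 23.5% of all windows. Il1rap held 30, reached by 5.94%, and Il17rb and Il3ra held 27 each, reached by 8.56%. The Il4 window held none. Genes that rose had between 4 and 30 CG (median 17.5, 6 genes with a window), genes that fell had between 0 and 27 (median 3.50, 8 genes), and measured genes that did neither had between 1 and 3 (median 3, 5 genes). The Il18 window, counted among those that fell, lies 10668 bases from the start of the gene's locus in the files. CpG-rich promoters therefore stood among genes of both directions. Of the genes that rose, Il21r and Il21 held 4 and 5 CG. Of those that fell, Il11ra1 and Il18bp held 4 each and only Il17rb and Il3ra held more. At least 5 CG were in 55.6% of all windows. This cut was chosen after the values were seen, and a link of CG count with direction was not tested. No window was matched for Il10ra, Il10rb and Il17ra, which rose, or for Il12rb1, which fell. The letters GATA, the core recognised by GATA factors, or TATC on the other strand, were in 6 of the 19 windows of measured genes, beside 53.6% of all windows. DNA methylation was not measured here.

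Receptor chains were 17 of the 24 measured genes, and 8 of them rose and 6 fell (median log2 ratio 0.19). Over all measured genes, 21.3% rose and 23.6% fell. Their summed level was 648 and 701 FPKM. Both chains of the IL-10 receptor, through which this cytokine restrains immune cells, went from near absence to clear levels. Il10ra, the ligand-binding chain (chromosome 9, 45253839 to 45269146), was at 0.0327 and 16.9 FPKM. It had 3 and 697 reads, a ratio of 496 (interval 169 to 2409). Il10rb, a chain that the IL-10 receptor shares with receptors of IL-22 and type III interferons (chromosome 16, 91406235 to 91425834), was at 0.785 and 41.2 FPKM. Its 43 and 1055 reads gave a 52.3-fold rise (interval 38.6 to 72.8). An annotated transcript, Gm21970, shares exon sequence with Il10rb on the same strand, so their reads cannot be told apart. At the depth of the KO library, the wild-type level of Il10ra would have given 1.41 reads and that of Il10rb 20.2.

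Il10ra, with its call nearly fixed by the filter, is also 1 of 6 receptor genes listed as carried by resting T cells. Of these 6, 5 rose and none fell (median log2 ratio 1.73), beside 21.3% and 23.6% of all measured genes. The others that rose were Il4ra, Il21r, Il6ra and Il6st, and the 6 genes summed to 152 and 281 FPKM. The count was 4 when both libraries had to hold more than 10 reads, which leaves out Il10ra, and 2 with a size rule of 2. Il4ra, the chain that binds IL-4 and also takes part in the IL-13 receptor (chromosome 7, 125552282 to 125579474), rose from 4.07 to 29.6 FPKM. The reads numbered 502 and 1608, a 6.83-fold rise (interval 6.18 to 7.57). Il21r, the chain that binds IL-21, lies 23954 bases downstream of Il4ra on the same chromosome and rose from 7.51 to 33.0 FPKM, 4.23-fold (interval 3.80 to 4.72). Il6ra, which binds IL-6 (chromosome 3, 89869324 to 89913162), rose from 22.3 to 63.1 FPKM, 2.78-fold (interval 2.62 to 2.94). Il6st, which encodes gp130, the signalling chain shared by the IL-6 family (chromosome 13, 112464070 to 112506860), rose from 1.95 to 6.23 FPKM, 3.17-fold (interval 2.75 to 3.66). A pseudocount of 5 took the log2 ratio of Il6st to 0.69, which ended the call. Il27ra, which binds IL-27 and pairs with gp130, was at 116 and 133 FPKM. It shares its locus in the files with Palm3, which had no reads in either library.

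Most naive T cell markers had higher levels in the KO library: 7 of 9 rose, beside 21.3% of all measured genes, and none fell by the size rule. Tcf7 went the other way, at 181 and 97.1 FPKM (log2 ratio -0.89), and Satb1 was at 87.2 and 95.8. The summed level of the 9 was 687 and 2278 FPKM, with none at 0. Myeloid and dendritic cell markers were higher too, with 8 of 10 measured risen, none fallen and a summed level of 694 and 4006 FPKM over 14 genes. Of these, Cd14 and Itgax were at 0 in both libraries and Csf1r was at 0.0654 and 1.52. Erythroid markers had 5 of 6 measured genes risen and summed to 358 and 1697 FPKM, while B cell markers had 1 of 2 risen, with Ms4a1, Pax5 and Ebf1 at 0 in both. Their part in the rise of the IL-10, IL-4, IL-21 and IL-6 receptor genes was not tested.

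**Figure D2:**
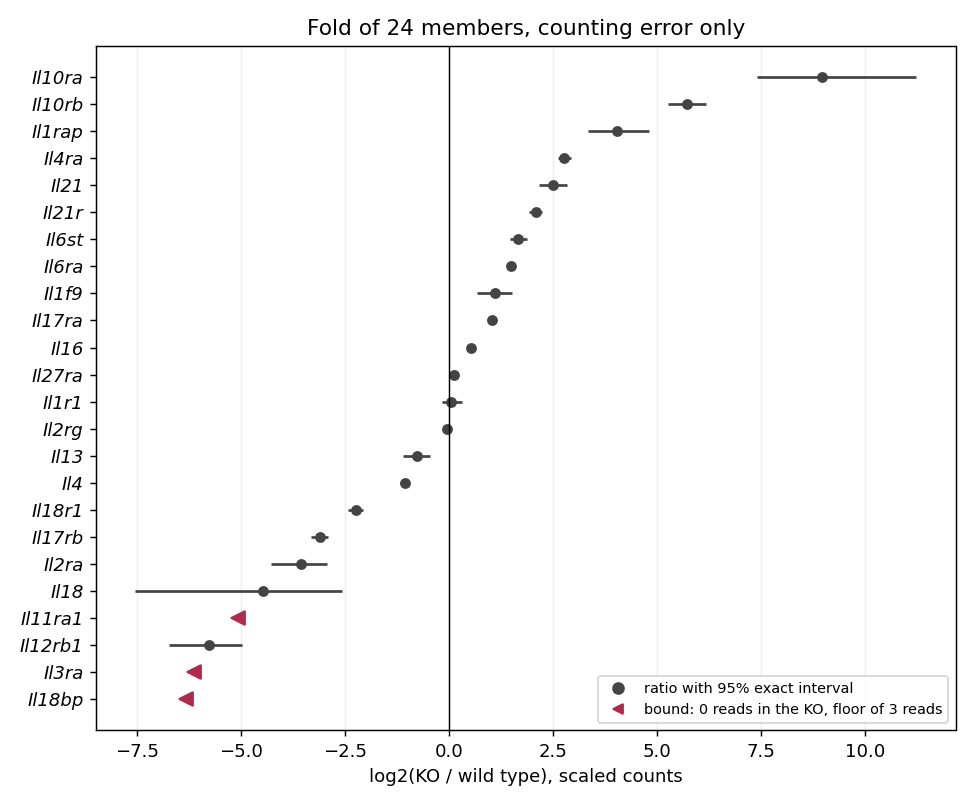
KO to wild-type ratio of scaled counts on a log2 axis for the 24 measured genes, with 95% exact intervals for counting error, and arrowheads for genes with 0 reads in the KO, set against a floor of 3 reads. Il10ra and Il10rb lie at the top, on 3 and 43 wild-type reads, and Il18bp, Il3ra, Il12rb1 and Il11ra1 lie at the bottom.

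Of the 6 receptors that fell, 3 were on the NKT1 or NKT2 lists, Il12rb1, Il18r1 and Il17rb. Il12rb1, the chain shared by the IL-12 and IL-23 receptors (chromosome 8, 70808449 to 70821423), fell from 27.0 to 0.529 FPKM. Its 1405 and 12 reads gave a 54.9-fold difference (interval 31.3 to 106). Its partner in the IL-12 receptor, Il12rb2, lay under the filter with 1.45 and 0.0483 FPKM, on 131 and 2 reads, a ratio of 30.7 (interval 8.33 to 256). Il12rb2 overlaps exons of Serbp1 on the other strand, which was at 65.4 and 53.0 FPKM, so reads of the overlap cannot be told apart where strand was not used. Il18r1, the chain that binds IL-18 (chromosome 1, 40465552 to 40500854), fell from 17.1 to 3.47 FPKM, 4.74-fold (interval 4.18 to 5.41). Il18rap, the partner that lets the IL-18 receptor signal, had 1 read in the wild type and none in the KO. Of the 5 genes listed as linked to NKT1 cells, 2 were measured and both fell, where 23.6% of all measured genes fell. Il12rb1, under an FPKM of 1 in the KO, passed the filter through the wild type alone, which nearly fixed its call. Il15ra was at 0 in both libraries.

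Il17rb, a chain of the IL-25 receptor that marks NKT2 cells and some NKT17 cells (chromosome 14, 29996168 to 30008896), fell from 72.8 to 8.61 FPKM. The reads numbered 3862 and 209, an 8.66-fold fall (interval 7.53 to 10.003). It was the fourth most abundant of the 55 genes in the wild type and ranked 11 in the KO. Il17ra, the chain shared across the IL-17 receptor family and needed beside Il17rb for IL-25, was at 18.4 and 39.6 FPKM, 2.05-fold higher (interval 1.92 to 2.19). Its log2 ratio of 1.07 lay at the edge of the size rule and the call ended with a pseudocount of 5 (0.93), with equal upper quartiles (0.94) and with scaled counts in place of FPKM (1.00, just under the rule). The chains of the IL-25 receptor thus had differences of opposite sign. The other IL-17 receptor genes Il17rc, Il17rd and Il17re were at 0.106 FPKM or less in the wild type and at 0.00824 or less in the KO.

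Il3ra, the ligand-binding chain of the IL-3 receptor (chromosome 14, 14346495 to 14355490), fell from 24.2 FPKM to 0. It had 448 reads in the wild type and none in the KO, where 210 would match the wild-type level, at least 69.996-fold lower against a floor of 3 reads per library. The signalling chains that IL-3 needs were at or near 0, with Csf2rb at 0.00817 and 0.515 FPKM and Csf2rb2 at 0 in both libraries. Csf2ra, the GM-CSF chain that uses the same partner, fell from 12.3 FPKM to 0. Il5ra, the IL-5 binding chain of that receptor family, lay under the filter with 63 and 0 reads, at least 9.84-fold lower.

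Il11ra1, which binds IL-11, fell from 6.57 FPKM to 0, on 215 and 0 reads, at least 33.6-fold lower. Its locus is shared with Ccl27a, which fell beside it from 12.9 to 0.491 FPKM on 135 and 2 reads, so reads of the overlap cannot be told apart where strand was not used. Il2ra, the alpha chain that gives the IL-2 receptor high affinity (chromosome 2, 11642792 to 11693194), fell from 2.69 to 0.217 FPKM, 11.9-fold (interval 7.60 to 19.6). A pseudocount of 5 took its log2 ratio to -0.56 and ended the call.

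Markers of other cells that can carry these receptors were measured beside them. Gamma-delta T cell markers had 2 of 3 fallen and a summed level of 125 and 6.04 FPKM, with Blk at 0 in the KO. NK cell markers had 2 of 3 measured genes fallen and 1, Klra1, risen, with a summed level of 51.2 and 20.4 FPKM over 5 genes. Neutrophil markers had 4 of 5 fallen and 1, Camp, risen, with a summed level of 191 and 14.7 FPKM and S100a8 and Retnlg at 0 in the KO. Markers of group 2 innate lymphoid and mast cells, cell types that carry Il17rb, Il3ra and Il1rl1, had 1 measured gene, Arg1, which did not reach the size rule, and summed to 3.30 and 1.57 FPKM, with Kit at 0.402 and 0 and Ms4a2 at 0 in the wild type. That list includes Il1rl1 itself. The part of these cells in the receptor values was not tested.

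The receptors of IL-1 and IL-33 share a signalling partner, which rose while their binding chains Il1r1 and Il1rl1 had nearly equal values. Il1rap, the accessory protein shared by the IL-1, IL-33 and IL-36 receptors (chromosome 16, 26581705 to 26725147), rose from 0.0941 to 2.77 FPKM. The rise was 16.3-fold by scaled counts on 19 and 145 reads (interval 10.1 to 27.8), against 29.4-fold by FPKM, and a pseudocount of 5 took the log2 ratio to 0.61, which ended the call. Il1r1, the IL-1 binding chain, was at 2.43 and 2.44 FPKM, a ratio of 1.04 (interval 0.884 to 1.23). Il1rl1, which encodes the IL-33 receptor ST2, was at 0.223 and 0.237 FPKM. Il1rl2, the IL-36 receptor, lay under the filter with 70 and 0 reads, at least 10.9-fold lower. These genes form a cluster on chromosome 1 with Il18r1, which begins 137 bases after the end of Il1rl1 in the files. Inside that cluster Il18r1 fell and Il1rl2 had no reads in the KO, while Il1r1 and Il1rl1 had nearly equal values. Il1rl1 was under the filter, on 48 and 25 reads, a ratio of 1.11 (interval 0.657 to 1.84).

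Il2rg, the common gamma chain that receptors for IL-2, IL-4, IL-7, IL-9, IL-15 and IL-21 share (chromosome X, 101264387 to 101268206), was the most abundant of the 55 genes in both libraries. It was at 320 FPKM in each, on 15099 and 6879 reads. With Il4 and Il27ra it made up 73.6% of the members' summed FPKM in wild-type cells and 66.3% in KO cells. Set beside Il2rg, the ligand-specific chains differed in level: Il4ra and Il21r were far below it and rose, and Il9r had 7 and 0 reads.

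Taking the chains of 14 receptors together shows where a receptor had transcripts for all its parts. The lowest chain of the IL-10 receptor was at 0.0327 and 16.9 FPKM, and that of the IL-12 receptor at 1.45 and 0.0483. For the type I IL-4 receptor (Il4ra with Il2rg) the lowest chain was at 4.07 and 29.6 FPKM, for the IL-21 receptor at 7.51 and 33.0, and for the IL-6 receptor at 1.95 and 6.23. The lowest chain of the IL-25 receptor was Il17ra in the wild type, at 18.4, and Il17rb in the KO, at 8.61. Il13ra1, the partner of Il4ra in the other IL-4 and IL-13 receptor, was at 0 in both libraries. The lowest chain of the IL-18, IL-33, IL-17A and IL-9 receptors was at 0.237 FPKM or less in each library.

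**Figure D3:**
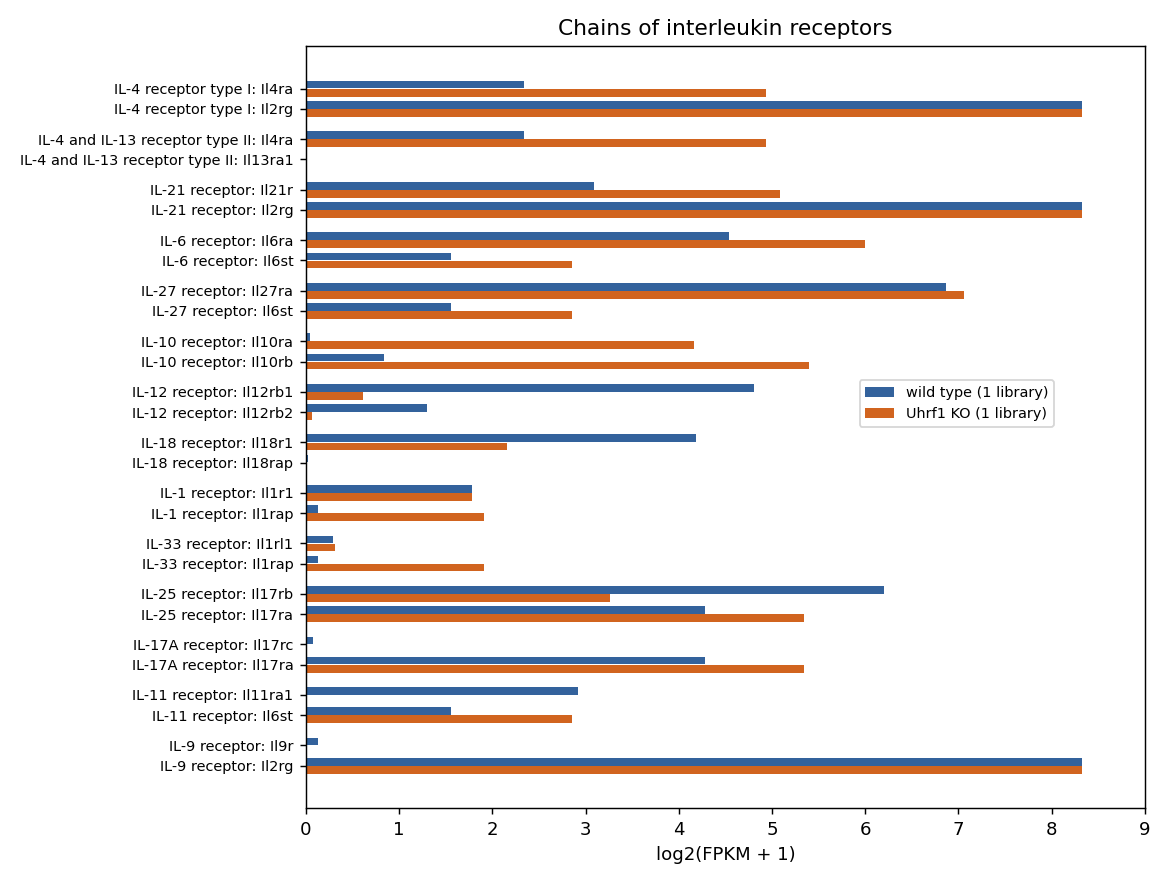
Level of each chain as log2(FPKM + 1) for 14 interleukin receptors, with bars for the wild-type and Uhrf1 KO libraries; chains shared between receptors are drawn again for each. Both IL-10 receptor chains have visible bars in the KO mainly, both IL-12 receptor chains in the wild type mainly, and the Il2rg bars are of equal length.

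Ligands, counted with antagonists and binding proteins, were fewer: of 19, 12 were at 0 in both libraries and 6 were measured. Of those 6, 1 rose and 3 fell (median log2 ratio -0.88), beside 21.3% and 23.6% of all measured genes. Of the called ones, only Il4 was at an FPKM of at least 1 in both libraries. Il4, the hallmark cytokine of early iNKT and NKT2 cells (chromosome 11, 53612461 to 53618665), fell from 316 to 150 FPKM. Its 4288 and 960 reads gave a 2.09-fold fall (interval 1.95 to 2.25), and it ranked second among the 55 genes in both libraries. Il13, a cytokine of the same type 2 locus 12657 bases away, was at 12.1 and 7.12 FPKM on 392 and 107 reads, 1.72-fold lower (interval 1.38 to 2.15). Its log2 ratio of -0.69 did not reach the size rule. Of the 4 NKT2-linked genes in the files, Il4 and Il17rb fell, Il13 did not reach the rule and Il1rl1 was under the filter. Gata3, the transcription factor that drives the type 2 cytokine locus, fell beside them from 56.9 to 24.4 FPKM.

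Il21, a cytokine of follicular helper and NKT cells that acts through Il21r (chromosome 3, 37222759 to 37232618), rose from 0.698 to 3.65 FPKM. The reads were 106 and 280, a 5.64-fold rise (interval 4.49 to 7.12), and with a pseudocount of 5 the log2 ratio was 0.60. The receptor chain Il21r rose too. Il21, under an FPKM of 1 in the wild type, passed the filter through the KO alone, which nearly fixed its call. Il1f9, which encodes the epithelial cytokine IL-36 gamma, was at 1.60 and 3.33 FPKM on 98 reads in each library, 2.13-fold higher (interval 1.60 to 2.85). It did not reach the size rule at a log2 ratio of 0.74. Il16, made as a long precursor in resting T cells, was at 28.0 and 43.0 FPKM, 1.44-fold higher (interval 1.37 to 1.52).

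IL-18 and its soluble inhibitor were both lower. Il18bp, a secreted protein that binds IL-18 and blocks it (chromosome 7, 102015077 to 102018155), fell from 12.7 FPKM to 0. It had 513 reads in the wild type and none in the KO, where 240 would match the wild-type level, at least 80.2-fold lower. Il18 (chromosome 9, 50565368 to 50581837) fell from 3.12 to 0.138 FPKM on 95 and 2 reads, a ratio of 22.3 (interval 5.996 to 187). Its log2 ratio with a pseudocount of 5 was -0.66. With Il18r1 also lower, the 3 measured genes of this axis all fell. Il18 and Il18bp, under an FPKM of 1 in the KO, passed the filter through the wild type alone, which nearly fixed their calls. Of the 3, only Il18r1 was at an FPKM of at least 1 in both libraries, at 17.1 and 3.47. Interleukins usually made by myeloid or stromal cells were mostly without reads: of 11 in the files, 8 were at 0 in both libraries, among them Il1a, Il1b, Il6, Il12a and Il15. Il33, an epithelial and stromal cytokine, had 0 and 8 reads, and Il31ra, a receptor of the gp130 family, had 0 and 24. Thymic epithelial and stromal markers summed to 28.9 and 99.5 FPKM, with 4 of 5 measured risen, namely Col1a1, Col1a2, Col3a1 and Krt18. Krt8 and Pdgfra were at 0 in both libraries. Under the filter, the epithelial markers Epcam, Krt5 and Psmb11 had 60 and 0, 9 and 0, and 26 and 7 reads. The stromal marker Pdgfrb had 11 and 48. The part of epithelial and stromal cells in these low values was not tested.

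**Figure D4:**
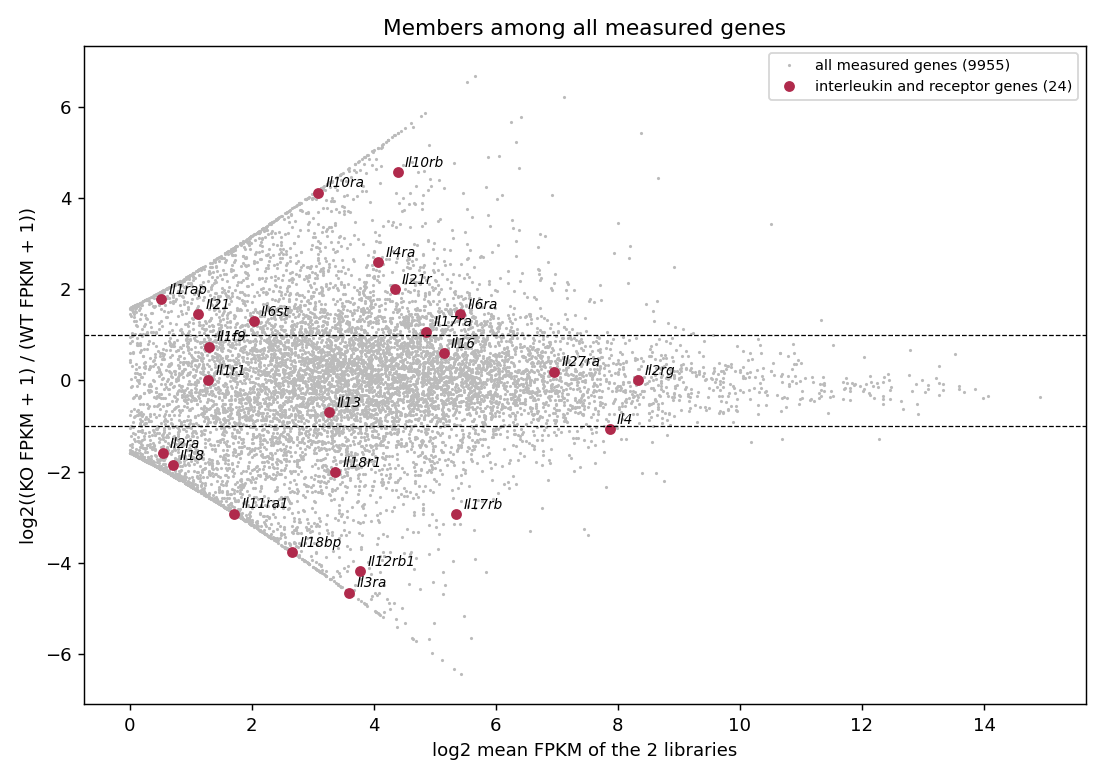
Size of the difference against mean FPKM for all 9955 measured genes (grey) and the 24 interleukin and receptor genes (labelled), with dashed lines at the size rule of 1. The members spread across the cloud in both directions, and Il2rg and Il27ra lie near 0 at the high end.

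NKT17-linked genes were sparse. Of 3 in the files, Il1r1 had nearly equal values, Il17re had 7 and 0 reads, and Il21 rose. The subset regulators gave larger differences, with 5 of 6 measured fallen and 1 risen, beside 23.6% and 21.3% of all measured genes. Maf, which supports several cytokine programmes, fell from 46.4 to 1.13 FPKM. Tbx21, which encodes the NKT1 factor T-bet, rose from 1.94 to 13.0 FPKM while the IL-12 receptor chains were lower.

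Downstream of the receptors, most signalling genes kept their level within the size rule. Of 34 in the fixed lists 29 were measured, and 5 rose, 2 fell and 22 did neither. Of all measured genes, 44.9% were called, and 26.1% of those at a mean FPKM of at least 25, so most genes at high levels did neither. All 11 Janus kinases and STATs were measured, with a median log2 ratio of 0.43. Stat4, which acts below IL-12, rose from 1.21 to 7.03 FPKM, 5.77-fold (interval 4.69 to 7.14). Stat5a, which acts below the gamma chain cytokines, rose from 7.12 to 19.8 FPKM, 2.67-fold (interval 2.38 to 2.99). Stat6, which acts below IL-4, was at 31.9 and 31.3 FPKM, and Jak3, the kinase bound to Il2rg, at 31.8 and 20.3.

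Of 8 measured feedback inhibitors, 1 rose and 2 fell, beside 21.3% and 23.6% of all measured genes. Those that fell, Cish and Socs4, were under an FPKM of 1 in the KO, which nearly fixed their calls. Socs3, which shuts off gp130 signals, rose from 6.04 to 41.0 FPKM, 6.36-fold (interval 5.57 to 7.29). Cish, a target of STAT5 that restrains it, fell from 5.85 to 0.212 FPKM on 250 and 4 reads, 29.3-fold (interval 11.3 to 108). Socs4 fell from 3.99 to 0.0916 FPKM. Among 10 measured adaptors of the IL-1 and IL-17 families 2 rose and none fell: Sigirr, an inhibitory receptor of that family, was at 45.1 and 92.7 FPKM and Tollip at 2.65 and 9.69. With a pseudocount of 5 neither was called. Myd88, the adaptor of IL-1 and IL-18 receptors, was at 37.99 and 32.3. Among partner chains with other names, Ebi3, a subunit of IL-27 and IL-35, fell from 6.21 to 0.109 FPKM on 131 reads and 1 read, a ratio of 61.4 (interval 10.8 to 2444). Crlf2, the TSLP receptor chain that pairs with Il7r, was at 57.2 and 28.5, a log2 ratio of -0.98.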

How the data were processed

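RNA came from sorted stage 1 iNKT cells, 1 library per genotype, grouped by the genotype in the labels; per the labels' protocols, the TruSeq RNA kit served for library preparation. The submitters' processing notes name Cufflinks 2.1.1, TopHat2 2.0.9 and the mm10 build. What each tool did, and the annotation, strand and filters, are not stated there. The authors deposited an FPKM value per gene, per the file headers. A second deposited column, called a count in the headers, is a scaled signal: its values are multiples of 0.799 (wild type) or 1.70 (KO). Dividing by these steps gave whole reads within 0.01, or within file rounding, for 98.3% and 98.8% of genes above 0 and for all values of the genes described here. Depth was 26005836 and 12189861 reads.

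Folds used these reads, with a floor of 3 per library at 0. No count model was fitted, as 1 library per group allows none. Gene positions are the files' loci, written from 1. The members and gene lists were chosen with earlier results of these data known. Named were all measured members, others at an FPKM of at least 1 in either library, and up to 4 genes of each other list with the largest change; further names were chosen after their values were seen. Cytokines of that rule without a row are not analysed here. A few genes of the lists are not reported here by name. A planned search of receptor proteins was not run. Steps were tested on simulated data. The alternatives were 10 planned and 2 added after the data were seen. Software was scipy 1.17.1, numpy 2.4.6, matplotlib 3.10.9 and pandas 2.3.3 under Python 3.11.15.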

Additional observations from a re-analysis of the deposited data

How the results depend on the processing

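With 1 library per genotype no alternative can replace replicates, and the depth of the KO, below that of the wild type, limits what its zeros show. No paired analysis was possible because each genotype has 1 library. No direction of a called member reversed, which was nearly fixed in advance. A pseudocount, filter or size rule cannot change the sign of a ratio, and the rescalings were small. The count of members that rose was 5 with a pseudocount of 5 and 3 with a size rule of 2, against 9, and the count that fell was 5 at more than 10 reads per library (added after the data were seen), against 9. Of ligands, 2 were called with a pseudocount of 5, at a mean FPKM of at least 5 and with more than 10 reads, and 1 with a size rule of 2, against 4. Of receptors, 8 were called with a size rule of 2, against 14. The median log2 ratio of 0.10 became 0.09 with a pseudocount of 5, at a mean FPKM of at least 5 and with equal sums without the 50 most abundant genes, 0.08 with scaled counts, -0.03 with no filter, -0.01 with equal upper quartiles, 0.30 without the members sharing a locus (added after the data were seen) and 0.40 with more than 10 reads. Equal upper quartiles moved the median of all genes to -0.12. The pseudocount of 5 ended the calls of Il17ra, Il18, Il1rap, Il21, Il2ra and Il6st, and called 12 of 24 members beside 25.6% of all genes. Other alternatives left these counts of members, ligands and receptors within 1.5 times those reported. Counts in the smaller lists moved further in 29 of 240 recomputations. With a size rule of 2 they were 2 for resting T cell receptors that rose, 3 for subset regulators that fell, 1 for NKT2-linked genes that fell and 0 for NKT17-linked genes, kinases and STATs and adaptors that rose. With more than 10 reads, 3 subset regulators fell, and no feedback inhibitor, partner chain or myeloid interleukin did.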
